A study of Homo sapiens with 23 samples.

Results

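Thalamus organoids (ThOs) labelled as knockout with c-JUN expressed again (OE) were compared at day 25 with ThOs labelled as c-JUN knockout (KO) by RNA-seq. The comparison took 4 of the 23 samples in the series, chosen by their titles: 2 OE libraries and 2 KO libraries, over all 9497 genes listed in each table. The ThOs were grown from the H1 human embryonic stem cell line, in medium with dual inhibition of BMP and TGF-beta signalling, then BMP7 and the MEK inhibitor PD325901, then a neuronal differentiation medium, and each library came from 3 pooled ThOs. KO cells carried a CRISPR/Cas9 edit of c-JUN, and OE cells carried the same kind of edit plus a doxycycline-inducible c-JUN introduced by plasmid transfection, so the edit was shared by both sides of the comparison. The study describes 2 KO clones, and the labels do not say which clone gave which library, nor whether the ThOs labelled KO received doxycycline, so an effect of the drug or of the clone cannot be told apart from an effect of c-JUN. WT libraries of day 25, from unedited H1 cells, and the KO and OE libraries of day 30 are used below for reference.

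c-JUN, encoded by JUN, is a basic leucine zipper protein that binds DNA as a dimer within the AP-1 family, with FOS or other JUN proteins at the TPA response element and with ATF and CREB proteins at the cyclic AMP response element. The thalamus arises from the diencephalon, whose dorsal midline, the roof plate, secretes WNT and BMP ligands and continues into the choroid plexus, an epithelium that produces cerebrospinal fluid and carries cilia. Progenitors in the ventricular zone divide under the influence of Notch and FGF signals before neurons leave it and extend axons.

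The values are normalized expression values in whole numbers from 11 to 9910, with the same median of 106 in every library and the same value, within a median of 1, at each rank of all 12 RNA-seq libraries. Read depth is not known from these values, so no counting interval is given, and a gene absent from any library would not be listed. The KO libraries were less alike than the others: 17.4% of all genes differed at least 2-fold between the KO replicates at day 25, against 2.15% between the OE replicates and 4.45% between the WT replicates. Spearman's rho over genes between a KO and an OE library ran from 0.803 to 0.854, a range that overlaps the rho of 0.821 between the KO replicates themselves. The labels do not say whether replicates were separate differentiations, so p-values measure the spread between libraries only. That spread was pooled over all 6 groups, day 30 included, so it does not measure the wider spread of the KO libraries alone. Markers of the thalamus were partly listed: 11 of 22 could be analysed, TCF7L2 among them, while GBX2 and OLIG3 were not analysed here. Of 17 telencephalon markers 1 was listed (LMO3), of 18 midbrain and hindbrain markers 2 (PAX3 and PAX7).

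JUN itself (ENSG00000177606) did not separate the groups. Its values were 353 and 196 in the libraries labelled KO, 224 and 212 in those labelled OE, and 139 and 153 in those labelled WT. Both OE values lay between the KO values, and both KO values lay above WT. The log2 fold change of OE against KO was -0.27 (SE 0.323, adjusted p = 0.716, limma), and leaving out KO replicate 1 turned it to 0.15. These RNA values thus do not separate the groups, and every direction below rests on the labels KO and OE. The study reported no c-JUN protein in its KO cell lines by western blot. By RT-qPCR it reported null c-JUN RNA in KO neural progenitor cells and KO cerebral organoids. In KO ThOs it reported less accessible chromatin at c-JUN by ATAC-seq. The KO values of JUN here, both above WT, differ from that RT-qPCR report, which was made in other cultures. None of those assays is analysed here. The JUN value does not tell transgene RNA from RNA of the edited gene.

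The AP-1 and JNK list had too few differing genes to be told apart from the share of all genes. The AP-1 family genes JUNB, FOS, FOSB, FOSL1, FOSL2, BATF, BATF3 and JDP2 were not listed and could not be assessed. Many of the measured members were kinases or scaffolds of JNK signalling. Among 20 measured members of the AP-1 and JNK list, 1 was higher in OE and 1 lower at an unadjusted p under 0.05, against 9.31% and 8.5% of all genes, and the list's median log2 fold change was 0.11 beside 0.03 for all genes. MAF, a large basic leucine zipper protein of the wider family, had values of 124 and 208 in KO and 387 and 252 in OE (log2 fold change 0.95, unadjusted p = 0.00603). ATF3, a stress-induced partner of c-JUN, had 72 and 56 in KO and 18 and 44 in OE (log2 fold change -1.14, unadjusted p = 0.0449). Neither passed the adjusted threshold. Of 12 genes often described as AP-1 responsive, 0 were higher and 1 was lower at that unadjusted p: MMP14, a membrane-bound matrix metalloproteinase, with 100 and 106 in KO and 49 and 62 in OE. CCND1, the cyclin that starts the G1 phase, had 532 and 721 in KO and 822 and 748 in OE and did not pass.

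Between OE and KO at day 25, 26 of 9497 genes were called, meaning at least 2-fold apart with an adjusted p below 0.05, which is 0.274% of all genes. Of these, 12 rose in OE (0.126%) and 14 fell (0.147%). The genes that rose included the WNT agonist RSPO2, the growth factor receptor FGFR3 and the cell surface proteins GPC4 and RGMB. The genes that fell included the roof plate transcription factor LMX1B, the tight junction protein CLDN1 and several genes of neuronal secretion and outgrowth. In all 26 genes the OE and KO libraries did not overlap, where 24.5% of all genes had both OE values above both KO values and 22.4% below, and these same values chose the genes. Adjusted p-values of the 26 ran from 0.018 to 0.0488, close to the threshold, and most were tied at 0.0439. At an unadjusted p under 0.05, 1691 genes differed.

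**Figure D1:**
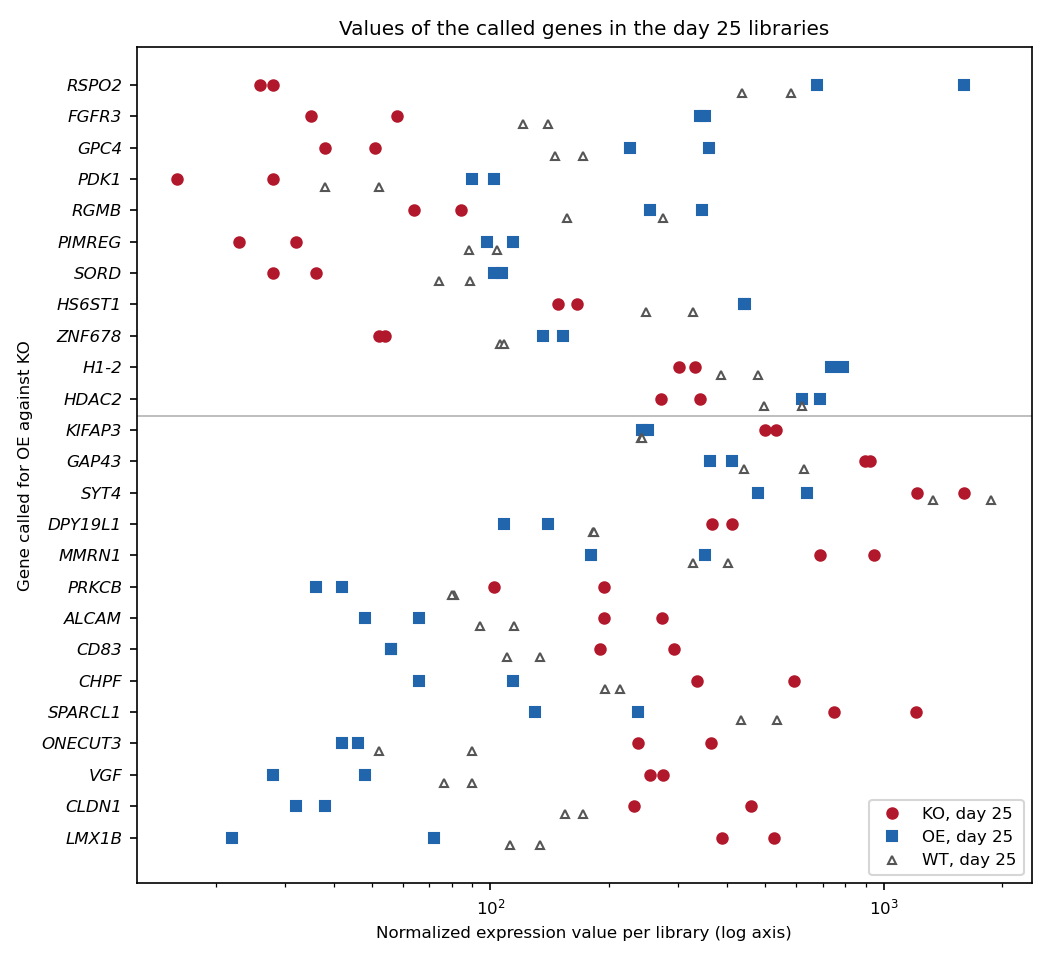
Normalized expression values of 25 of the 26 called genes in each day 25 library on a log axis (filled circles KO, filled squares OE, open triangles WT; 2 libraries per group, genes ordered by fold change, a line between genes that rose and fell in OE). KO and OE values do not overlap for any of the genes, which were called on these values, and RSPO2 has the widest gap, from 26 and 28 in KO to 1606 and 678 in OE.

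RSPO2, FGFR3 and GPC4 had the largest changes of the called genes that rose. RSPO2 (ENSG00000147655, GRCh38 chromosome 8, 107899316 to 108083642), a secreted protein that strengthens WNT signalling through LGR receptors, had values of 26 and 28 in KO, 1606 and 678 in OE and 436 and 580 in WT. Both KO libraries were more than an order of magnitude below every OE and WT library, and both OE libraries were above both WT libraries. The log2 fold change of OE against KO was 5.22 (SE 0.674, adjusted p = 0.018, limma). FGFR3 (chromosome 4, 1793293 to 1808872), a receptor tyrosine kinase for fibroblast growth factors found in ventricular zone progenitors, had 58 and 35 in KO, 341 and 352 in OE and 140 and 121 in WT, a log2 fold change of 2.91 (adjusted p = 0.018, SE 0.34). WT lay between the groups. GPC4 (chromosome X, 133300103 to 133415489), a heparan sulfate proteoglycan of the cell surface that binds FGF and WNT ligands, had 38 and 51 in KO, 359 and 227 in OE and 172 and 146 in WT, with a log2 fold change of 2.67 (adjusted p = 0.018, SE 0.323). HS6ST1, the enzyme that adds 6-O-sulfate to heparan sulfate chains, had 149 and 166 in KO, 445 and 442 in OE and 249 and 328 in WT (log2 fold change 1.49, adjusted p = 0.0439). RGMB, a membrane-anchored co-receptor for BMP ligands, had 64 and 84 in KO and 255 and 345 in OE, with WT at 157 and 274, so that 1 WT library was within the OE range (log2 fold change 2.00, adjusted p = 0.0439).

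The remaining genes that rose included enzymes of metabolism and proteins of chromatin. PDK1, the kinase that restrains entry of pyruvate into mitochondria, had values of 28 and 16 in KO, 90 and 102 in OE and 52 and 38 in WT, and a log2 fold change of 2.12 (adjusted p = 0.0488, SE 0.377). SORD, which oxidizes sorbitol to fructose, had 28 and 36 in KO and 107 and 102 in OE. For both, the WT values lay above the KO values and below the OE values. HDAC2, a histone deacetylase, had 342 and 272 in KO, 619 and 689 in OE and 496 and 619 in WT. H1-2, a linker histone, had 332 and 302 in KO, 788 and 733 in OE and 385 and 480 in WT. PIMREG, a mitotic regulator, had 32 and 23 in KO and 98 and 114 in OE, and ZNF678, a zinc finger protein, had 54 and 52 in KO and 136 and 153 in OE. The log2 fold changes of these 5 genes after PDK1 were 1.69 for SORD, 1.10 for HDAC2, 1.26 for H1-2, 1.92 for PIMREG and 1.43 for ZNF678, each at an adjusted p of 0.0439.

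Of the called genes that fell, LMX1B and CLDN1 had the largest changes. LMX1B (chromosome 9, 126613928 to 126701032), a LIM homeodomain factor of the roof plate and isthmus, had values of 525 and 388 in KO, 22 and 72 in OE and 134 and 112 in WT (log2 fold change -3.46, SE 0.567, adjusted p = 0.0439). CLDN1 (chromosome 3, 190305707 to 190322446), a tight junction protein of epithelia including the choroid plexus, had 460 and 232 in KO, 38 and 32 in OE and 172 and 155 in WT (log2 fold change -3.19, SE 0.496, adjusted p = 0.0439). In both genes WT lay below KO and above OE. CHPF, a chondroitin polymerizing factor, had 592 and 336 in KO, 114 and 66 in OE and 196 and 214 in WT (log2 fold change -2.35, adjusted p = 0.0216). DPY19L1, a C-mannosyltransferase family member studied in migrating neurons, had 412 and 366 in KO, 108 and 140 in OE and 182 and 183 in WT. MMRN1, a secreted multimerin, had 944 and 688 in KO, 180 and 351 in OE and 327 and 402 in WT, where OE and WT overlap. CD83, an immunoglobulin family surface protein, had 190 and 293 in KO and 56 in both OE libraries, and its WT values of 134 and 110 lay between.

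Several of the other genes that fell are known from neurons. VGF (chromosome 7, 101162509 to 101165569), a precursor of secreted neuropeptides, had values of 275 and 254 in KO, 48 and 28 in OE and 90 and 76 in WT, a log2 fold change of -2.82 (adjusted p = 0.0439, SE 0.476). ONECUT3, a homeodomain factor of early neurons, had 238 and 364 in KO, 42 and 46 in OE and 90 and 52 in WT, a log2 fold change of -2.72 (SE 0.464). SPARCL1, a secreted matrix protein active at synapses, had 746 and 1210 in KO, 130 and 237 in OE and 434 and 536 in WT. ALCAM, an adhesion molecule of growing axons, had 273 and 194 in KO, 48 and 66 in OE and 115 and 94 in WT, a log2 fold change of -2.01 at an adjusted p of 0.018. PRKCB, a protein kinase C, had 195 and 102 in KO, 36 and 42 in OE and 81 and 80 in WT. In these 5 genes all WT values lay between the groups. SYT4, a synaptotagmin of dense core vesicles, had 1214 and 1606 in KO, 480 and 640 in OE and 1332 and 1879 in WT, so here WT was not between them but overlapped KO. GAP43, a growth cone protein, had 926 and 898 in KO, 361 and 412 in OE and 442 and 629 in WT. KIFAP3, the adaptor subunit of the kinesin-2 motor, had 500 and 532 in KO, 252 and 243 in OE and 242 and 243 in WT, where OE and WT were nearly equal.

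Against WT at day 25, 0 genes were called in OE by limma, while 397 passed an unadjusted p under 0.05. For the 26 genes above, 15 had an unadjusted p under 0.05 for OE against WT, and their adjusted p ran from 0.115 to 1. The lowest was that of SYT4, whose OE values were below WT (log2 fold change -1.51). This contrast shares the OE libraries with the comparison of OE and KO.

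The number of calls depended on 1 library at a time and on how the spread was estimated. Without OE replicate 1, 0 genes were called (1130 at an unadjusted p under 0.05), and without OE replicate 2, 4 genes were. Without KO replicate 1, 290 genes were called, and without KO replicate 2, 75. Of the 26 genes, 25 were among the 290 and 12 among the 75. A fit of the 4 libraries alone called 0 genes (1378 at an unadjusted p under 0.05), and library weights, which gave each KO library 0.404 and each OE library 1.93, left 1 call, RSPO2. FGFR3 and GPC4 were called under 12 of 15 settings and PDK1 under 5 of 15. The sign of the change of each of the 26 genes was the same in all 15 settings. Their KO and OE values do not overlap, so leaving out a library could not reverse a sign. Several settings were also nearly the same fit, since the filter removed 0 genes and the values were already alike in distribution.

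**Figure D2:**
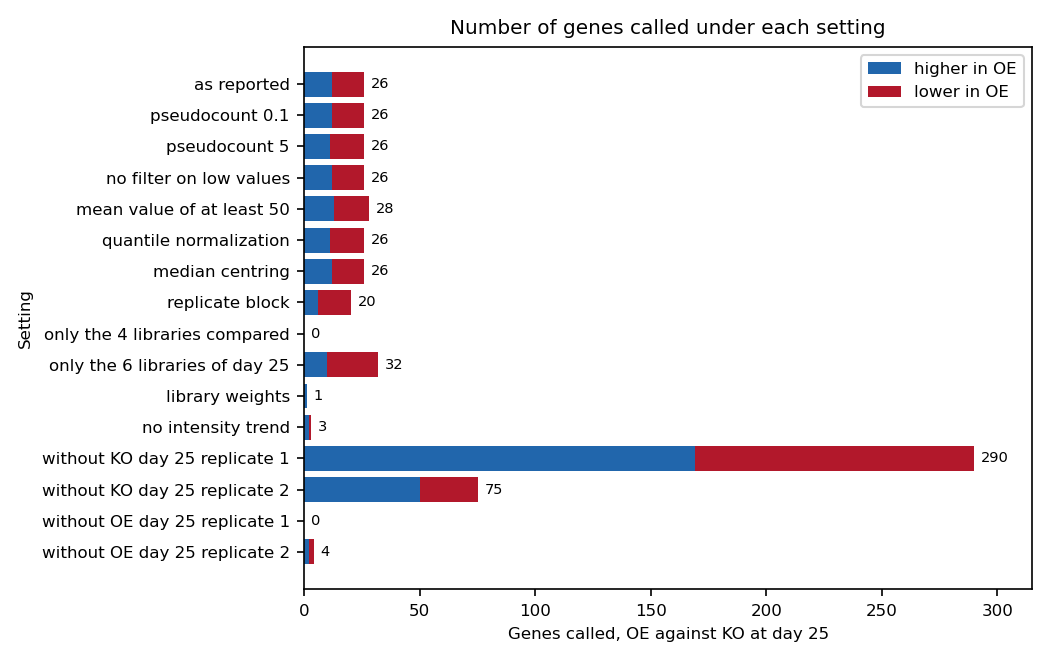
Number of genes called for OE against KO at day 25 as reported and under each of 15 other settings (bars from 0, blue higher in OE, red lower in OE, the total at the end of each bar). Leaving out 1 library moves the total from 26 to 0, 4, 75 or 290, while other pseudocounts and normalizations leave it at 26. The values already had nearly the same distribution in every library, so the normalizations could hardly change the total and do not test it.

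Promoter sequences were examined for the DNA motifs of c-JUN dimers. RefSeq promoters, 250 bases before to 50 after the start on GRCh38.p14, were found for 21 of the 26 genes (28 promoters). RSPO2, PIMREG, SORD and ONECUT3 are named only. The AP-1 motif TGANTCA, on either strand, was in a promoter of 1 of 21 genes, RGMB, and in 7.71% of all 35116 promoters. The cyclic AMP response element TGACGTCA, which reads the same on both strands and does not contain TGANTCA, was in promoters of 2 of 21 genes, CHPF and VGF, and in 1.85% of all promoters. Genes were counted when any of their promoters held the motif, whereas the shares of all promoters count single promoters, so the units differ. The 3 sequences are shown because they hold these motifs. Each gives the 250 bases before the start, 5′ to 3′ on the strand of the gene, with the motif in capitals, from chr5:98768382-98768631 (plus strand, 1 of 3 promoters of RGMB), chr2:219543810-219544059 (minus strand, 1 of 2 of CHPF) and chr7:101165570-101165819 (minus strand, VGF).
RGMB: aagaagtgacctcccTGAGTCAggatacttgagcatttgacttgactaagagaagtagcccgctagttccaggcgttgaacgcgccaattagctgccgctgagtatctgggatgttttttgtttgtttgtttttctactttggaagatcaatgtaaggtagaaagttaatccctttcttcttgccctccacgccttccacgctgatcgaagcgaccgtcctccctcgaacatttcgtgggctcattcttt
CHPF: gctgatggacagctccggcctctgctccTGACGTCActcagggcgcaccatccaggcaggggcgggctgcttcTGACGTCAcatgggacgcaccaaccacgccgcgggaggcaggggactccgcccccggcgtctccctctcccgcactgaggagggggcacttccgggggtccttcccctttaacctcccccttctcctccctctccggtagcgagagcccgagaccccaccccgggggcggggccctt
VGF: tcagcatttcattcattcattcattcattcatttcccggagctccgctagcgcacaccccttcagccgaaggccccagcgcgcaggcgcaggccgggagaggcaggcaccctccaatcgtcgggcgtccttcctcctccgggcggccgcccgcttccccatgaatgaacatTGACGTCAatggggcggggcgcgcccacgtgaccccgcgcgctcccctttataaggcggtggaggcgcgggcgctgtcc
In RGMB, which rose, the motif TGAGTCA began at position -235 from the start. In CHPF, which fell, TGACGTCA began at positions -222 and -177, and in VGF, which fell, at position -79. These matches describe letters in a window and say nothing of binding, and the CUT&Tag and ATAC-seq samples were not analysed here.

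Most of the genes of dividing cells on the lists passed an unadjusted p under 0.05 with OE higher. Of 47 replication-dependent histone genes, which package new DNA in S phase, 36 were higher in OE and 0 lower at that p, against 9.31% and 8.5% of all genes. Their median log2 fold change was 1.34, against 0.03 for all genes, and 46 of 47 did not overlap, with OE higher, against 24.5% of all genes. H1-2 alone was called. H4C9 had values of 133 and 46 in KO, 391 and 400 in OE and 133 and 218 in WT, and H2AC12 had 72 and 33 in KO, 270 and 247 in OE and 82 and 214 in WT. H2BC13 had 85 and 94 in KO, 340 and 374 in OE and 92 and 200 in WT. In these 3 genes WT replicate 1 was near KO and WT replicate 2 was higher, and the list's mean log2 level was 6.84 and 7.89 in the WT libraries, a wider gap than between the KO libraries (7.15 and 6.69) or the OE libraries (8.23 and 8.31). Histone genes are near-identical copies whose reads can be divided between them in more than 1 way, so the values of single members are uncertain. Without KO replicate 2, 19 of 47 were higher, without OE replicate 1, 23, and without OE replicate 2, 20, with a median between 1.00 and 1.62 over the 4 fits that left out a library.

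Of 43 cell cycle and replication genes, 29 were higher in OE and 0 lower at an unadjusted p under 0.05, against 9.31% and 8.5% of all genes, and 37 did not overlap with OE higher, against 24.5%. The median log2 fold change was 0.88, with 0 genes called. CCNA2, the cyclin of S and G2 phases, had values of 20 and 48 in KO, 118 and 146 in OE and 84 and 94 in WT (log2 fold change 2.04, adjusted p = 0.0618). TOP2A, the topoisomerase that untangles replicated DNA, had 617 and 536 in KO, 1042 and 1156 in OE and 820 and 1008 in WT (log2 fold change 0.93). NUSAP1, a spindle protein, had 126 and 93 in KO, 210 and 264 in OE and 218 and 203 in WT. The list's mean log2 level was 6.70 and 6.43 in KO, 7.43 and 7.53 in OE and 7.17 and 7.26 in WT, with no overlap between the 3 groups. Each library left out in turn gave 20 to 29 genes higher in OE and a median between 0.70 and 1.05.

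Of 23 measured radial glia and progenitor markers, 12 were higher in OE and 0 lower at an unadjusted p under 0.05, against 9.31% and 8.5% of all genes, and 5 had a negative log2 fold change, with a median log2 fold change of 0.74 and 0 genes called. SOX1, a transcription factor of neural progenitors, had values of 31 and 16 in KO, 91 and 155 in OE and 74 and 114 in WT (log2 fold change 2.36, adjusted p = 0.062). POU3F3 and POU3F2, related POU factors of progenitors and upper layer neurons, had 90 and 26 in KO and 182 and 273 in OE, and 135 and 71 in KO and 258 and 480 in OE. NES, the intermediate filament nestin, had 1159 and 340 in KO, 1330 and 1604 in OE and 1260 and 1330 in WT. PTPRZ1, a receptor phosphatase of radial glia, had 462 and 148 in KO, 592 and 2094 in OE and 1014 and 1412 in WT, so the OE libraries themselves differed more than 3-fold. KO replicate 2 was the lowest of the 6 day 25 libraries in all 5 of these genes. Without KO replicate 2 the count fell to 6 of 23 and the median was 0.68, and without OE replicate 2 to 5 of 23 and 0.60.

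Notch signalling keeps progenitors from differentiating, though not every gene on its list acts that way. The list had 6 of 14 members higher and 0 lower at an unadjusted p under 0.05. Of all genes, 9.31% were higher and 8.5% lower at that p. OE lay higher without overlap in 7 of 14, against 24.5% of all genes. The median log2 fold change was 0.49, and each library left out in turn gave a median between 0.50 and 0.61. NOTCH1 had values of 285 and 84 in KO, 480 and 586 in OE and 412 and 388 in WT. NOTCH3 had 304 and 134 in KO, 640 and 472 in OE and 471 and 600 in WT. HES6, an inhibitor of HES1 that promotes neuronal differentiation, had 85 and 90 in KO, 237 and 195 in OE and 89 and 78 in WT, where WT sat with KO. HES1, a Notch target, had 28 and 66 in KO and 86 and 108 in OE.

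Of 39 genes of glycolysis and the hypoxia response, 13 were higher in OE and 0 lower at an unadjusted p under 0.05, against 9.31% and 8.5% of all genes. OE lay higher without overlap in 21 of 39, against 24.5% of all genes, the median log2 fold change was 0.50, and 8 members had a negative value. PDK1 was the called member. SLC2A1, the glucose transporter GLUT1, had values of 158 and 112 in KO, 527 and 598 in OE and 370 and 484 in WT (log2 fold change 2.07, adjusted p = 0.0868). HK2, a hexokinase, had 130 and 72 in KO, 275 and 409 in OE and 136 and 256 in WT. ERO1A, an oxidase of the endoplasmic reticulum induced in hypoxia, had 18 and 34 in KO, 58 and 68 in OE and 96 and 78 in WT, so WT exceeded OE. Without OE replicate 2, 4 of 39 were higher, and without KO replicate 2, 8. Of 25 cholesterol synthesis genes, 8 were higher and 1 lower at that p, with a median of 0.48. FDFT1, the squalene synthase, had 472 and 420 in KO and 688 and 922 in OE (log2 fold change 0.84), and TM7SF2, a late reductase of the pathway, had 366 and 368 in KO and 222 and 232 in OE (-0.69). The count fell to 1 of 25 higher both without KO replicate 2 (median 0.30) and without OE replicate 2 (median 0.25).

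Cytosolic ribosomal protein genes had 14 of 79 higher and 1 lower at an unadjusted p under 0.05, against 9.31% and 8.5% of all genes. Their median log2 fold change was 0.32, and 35 of 79 did not overlap with OE higher, against 24.5% of all genes. RPL37 had values of 220 and 185 in KO and 350 and 434 in OE (log2 fold change 0.95, unadjusted p = 0.000601). The list's mean log2 level was 8.92 and 9.20 in KO and 9.24 and 9.59 in OE, with both OE libraries above both KO libraries by a narrow margin, and 8.84 and 9.30 in WT, which overlapped both. Without OE replicate 2 the count fell to 2 of 79 and the median to 0.11, and without KO replicate 1 to 6 of 79 and 0.15. Of 68 oxidative phosphorylation subunits, 0 were higher and 6 lower (8.82%) at that p, with a median of -0.18. The lower share was near that of all genes (8.5%). The list turned on the KO libraries: without KO replicate 2, 6 were higher and 2 lower with a median of -0.04, and without KO replicate 1, 2 were higher and 13 lower. NDUFA8, a subunit of complex I, had 100 and 158 in KO and 52 and 34 in OE, and ATP5F1A, the alpha subunit of the ATP synthase, had 1599 and 1878 in KO and 1081 and 1044 in OE.

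Most motile cilia genes were lower in OE, with wide gaps between the KO libraries. Of 22 measured members, 17 were lower and 0 higher at an unadjusted p under 0.05, against 8.5% of all genes, the same number did not overlap with OE lower, against 22.4% of all genes, and the median log2 fold change was -1.65 with 0 genes called. DNAH9, an axonemal dynein, had values of 145 and 435 in KO, 42 in both OE libraries and 120 and 86 in WT (log2 fold change -2.55, adjusted p = 0.0675). PIFO, a protein of cilium assembly, had 258 and 926 in KO, 78 and 94 in OE and 110 and 138 in WT. TEKT1, a tektin of axonemal microtubules, had 82 and 256 in KO, 16 and 35 in OE and 40 and 56 in WT. In all 3 genes KO replicate 2 was about 3 times KO replicate 1, while KO replicate 1 still lay above every OE library. The list's mean log2 level was 6.68 and 8.05 in KO, 5.75 and 6.04 in OE and 6.42 and 6.32 in WT. Without KO replicate 2, 4 of 22 were lower and the median was -0.88, and without KO replicate 1, 18 were lower and it was -2.41.

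The choroid plexus epithelium list had 5 of 14 members lower and 0 higher at an unadjusted p under 0.05, with a median of -0.75. Of all genes, 8.5% were lower and 9.31% higher at that p. OE lay lower without overlap in only 4 of 14, where 22.4% of all genes did, and the other 10 overlapped. CLDN1 was the called member. IGFBP7, a secreted insulin-like growth factor binding protein, had values of 206 and 720 in KO, 56 and 65 in OE and 124 in both WT libraries (log2 fold change -2.66, adjusted p = 0.0701). ENPP2, the secreted enzyme autotaxin, had 132 and 420 in KO, 36 and 33 in OE and 71 and 58 in WT. CLDN5, a tight junction protein of barrier endothelium, had 124 and 190 in KO and 196 and 108 in OE, which overlap. The list's mean log2 level was 7.32 and 8.77 in KO, 7.30 and 6.58 in OE and 7.34 and 7.47 in WT, so KO replicate 1 and OE replicate 1 were alike. Without KO replicate 2 the median was -0.01. Fewer cells of a type and less RNA per cell cannot be told apart in these pooled organoids.

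**Figure D3:**
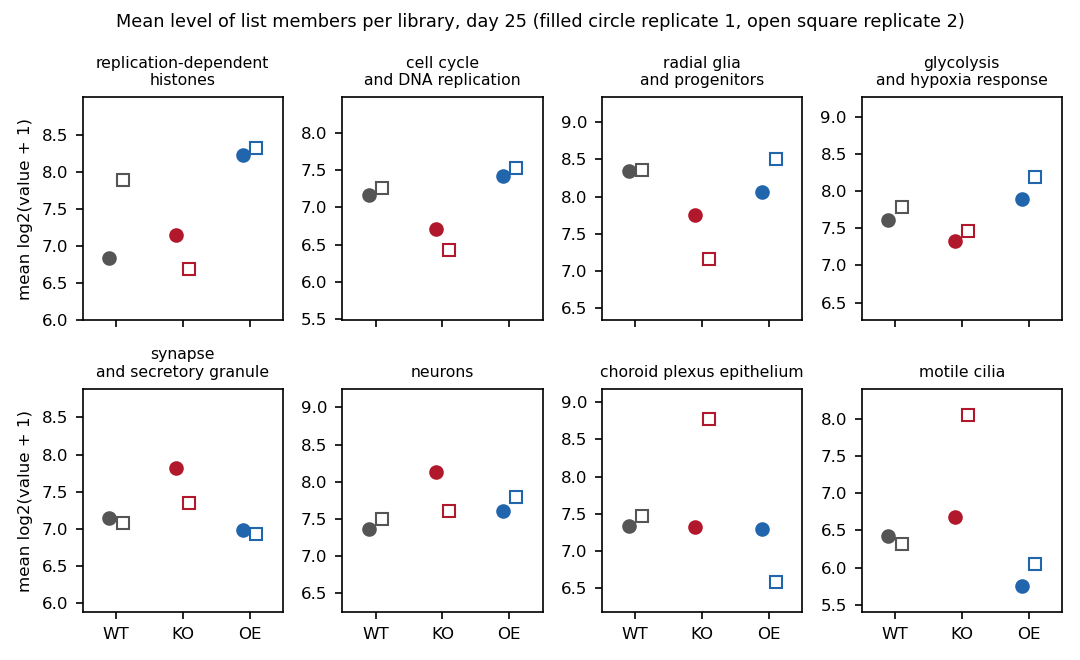
Mean log2(value + 1) over the members of 8 gene lists in each day 25 library (WT grey, KO red, OE blue; filled circles replicate 1, open squares replicate 2; every panel spans the same range). OE lies above KO for histones, cell cycle, progenitors and glycolysis, and the 2 KO libraries are far apart for the choroid plexus (7.32 and 8.77) and motile cilia lists (6.68 and 8.05).

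Roof plate markers did not move one way. The counts below stand beside 9.31% of all genes higher and 8.5% lower. Of 17 measured members, 2 were higher and 5 lower at an unadjusted p under 0.05, with a median of -0.42, and RSPO2 and LMX1B were called in opposite directions. WNT8B, a WNT ligand of the dorsal midline, had values of 46 and 51 in KO, 274 and 122 in OE and 169 and 334 in WT (log2 fold change 1.90, adjusted p = 0.0701), so OE and WT overlapped and both lay above KO. MSX1, a BMP-induced homeodomain factor, had 484 and 732 in KO, 135 and 116 in OE and 169 and 132 in WT (log2 fold change -2.24, adjusted p = 0.0664). GDF7, a BMP ligand of the roof plate, had 1215 and 789 in KO, 140 and 331 in OE and 542 and 411 in WT. WNT1, the WNT ligand of the dorsal midline and isthmus, had 152 and 47 in KO, 20 and 15 in OE and 42 and 43 in WT. OE lay below KO without overlap in these 3 genes, and WT was nearer to OE in MSX1.

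The wider pathways were mixed at an unadjusted p under 0.05, where 9.31% of all genes were higher and 8.5% lower. Among 12 WNT ligands and agonists, 3 were higher (RSPO2, WNT7B and WNT8B) and 4 lower, with a median of -0.15. WNT7B, a ligand of neural progenitors, had values of 70 and 44 in KO, 223 and 262 in OE and 114 and 228 in WT. Among 38 WNT receptors and regulators, 2 were higher and 9 lower, with a median of -0.05. LGR4, a receptor for R-spondins, had 390 and 173 in KO, 76 and 87 in OE and 106 and 122 in WT, and APCDD1, an inhibitor of WNT signalling, had 1156 and 576 in KO, 178 and 342 in OE and 1042 and 556 in WT. LGR4 was thus lower in OE where RSPO2, its ligand, was higher, at an adjusted p of 0.0907 for LGR4. Among 30 BMP and TGF-beta genes 3 were higher and 7 lower (median -0.06). BAMBI, a decoy BMP receptor, had 144 and 298 in KO and 66 and 96 in OE. Among 16 FGF genes 2 were higher and 3 lower (median -0.18): FGFR3 rose, while FGFR2, a related receptor, had 1214 and 1157 in KO and 922 and 700 in OE (log2 fold change -0.56, unadjusted p = 0.0335). FGF12, an intracellular FGF that binds sodium channels, had 140 and 281 in KO, 22 and 32 in OE and 121 and 123 in WT, just short of the threshold (log2 fold change -2.86, adjusted p = 0.0514).

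Among retinoid genes, 1 of 7 was higher and 2 lower at an unadjusted p under 0.05, against 9.31% and 8.5% of all genes. CYP1B1, a cytochrome P450 that can oxidize retinol, had values of 1466 and 1738 in KO, 51 and 238 in OE and 578 and 394 in WT, a log2 fold change of -3.84 that exceeded those of all called genes that fell but had an SE of 0.783 and an adjusted p of 0.062. RDH10, the retinol dehydrogenase, had 257 and 152 in KO, 45 and 31 in OE and 132 and 100 in WT. CRABP2, a retinoic acid carrier, had 62 and 199 in KO and 332 and 224 in OE. KO libraries held the highest values in the first 2 genes.

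Axon, adhesion and matrix genes also split at an unadjusted p under 0.05, where 9.31% of all genes were higher and 8.5% lower. Of 47 axon guidance genes, 6 were higher and 8 lower, with a median of -0.02. SEMA6A, a transmembrane semaphorin, had values of 209 and 180 in KO, 386 and 381 in OE and 536 and 540 in WT. Its adjusted p of 0.0487 passed, but its log2 fold change of 0.98 (SE 0.173) fell just short of 2-fold, and it was the 1 gene of 27 lost to the fold minimum. EPHB2, a receptor for ephrin-B ligands, had 237 and 188 in KO and 427 and 732 in OE, and its ligand EFNB1 had 70 and 115 in KO and 210 and 275 in OE (log2 fold changes 1.40 and 1.41). SEMA5A, a semaphorin with thrombospondin repeats, had 75 and 96 in KO and 37 and 34 in OE. DCC, the netrin receptor, had 637 and 210 in KO and 808 and 525 in OE, which overlap.

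Of 39 neural adhesion molecules, 5 were higher and 8 lower. The contactins differed in sign: CNTN2, of commissural axons, had values of 877 and 249 in KO and 1466 and 1880 in OE (log2 fold change 1.83, adjusted p = 0.106), whereas CNTN1 had 449 and 170 in KO and 103 and 102 in OE (-1.42) and CNTN4 had 89 and 72 in KO and 32 and 16 in OE (-1.77). Of 50 extracellular matrix genes, 3 were higher and 11 lower, with a median of -0.24. COL2A1, the collagen of cartilage and of the embryonic notochord, had 564 and 650 in KO, 81 and 120 in OE and 217 and 130 in WT (log2 fold change -2.61, adjusted p = 0.062). COL1A2, a fibrillar collagen of mesenchyme, had 352 and 734 in KO, 132 and 78 in OE and 198 and 195 in WT. MXRA5, a matrix remodelling protein, had 46 and 40 in KO, 37 and 49 in OE and 324 and 148 in WT, so that OE and KO overlapped and both were below WT. HSPG2, the proteoglycan perlecan, had 109 and 37 in KO, 120 and 102 in OE and 467 and 285 in WT, again with both groups below WT.

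The synapse and secretory granule list had 0 of 31 members higher and 9 lower at an unadjusted p under 0.05. Of all genes, 9.31% were higher and 8.5% lower at that p. Of the 31 members, 4 were called lower (SYT4, SPARCL1, VGF and PRKCB), against 0.147% of all genes. The median was -0.55, and 16 members did not overlap with OE lower, against 22.4% of all genes. The list's mean log2 level was 7.82 and 7.35 in KO, 6.99 and 6.93 in OE and 7.14 and 7.08 in WT. Without KO replicate 1 the median was -0.12 with 7 lower, and without KO replicate 2 it was -0.71 with 16 lower. Of 28 general neuron markers, 2 were higher (7.14%) and 5 lower (17.9%) at that p, among them the called genes ONECUT3 and GAP43. The median over the 28 markers was -0.13. Without KO replicate 2, 0 were higher and 8 lower and the median was -0.41, and without KO replicate 1 it was 0.12. The difference between the synapse and neuron lists was not tested. TUBB3, the neuronal tubulin, had values of 1606 and 1014 in KO and 1604 and 1740 in OE, and NEFL, the light neurofilament, had 747 and 618 in KO, 250 and 394 in OE and 308 and 348 in WT. ONECUT2, a relative of ONECUT3, had 476 and 403 in KO and 102 and 176 in OE.

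Of 11 measured thalamus markers, 0 passed an unadjusted p under 0.05 in either direction, and the median log2 fold change of 0.43 turned to -0.10 without KO replicate 2 and to -0.04 without OE replicate 2. TCF7L2, the thalamic transcription factor, had values of 256 and 121 in KO, 123 and 465 in OE and 224 and 128 in WT, and the OE libraries spanned the KO libraries (log2 fold change 0.44, SE 0.663, adjusted p = 0.78). NEUROG1, a proneural factor, had 26 and 28 in KO and 46 and 44 in OE (unadjusted p = 0.102). The list's mean log2 level was 6.59 and 5.87 in KO, 6.13 and 7.04 in OE and 6.39 and 6.01 in WT. POU4F1, which marks the habenula next to the thalamus, had 98 and 76 in KO and 58 and 232 in OE.

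Other tissue markers that the tables listed were few. KRT8 and KRT18, the keratins of simple epithelia, had values of 211 and 198 in KO and 78 and 64 in OE, and 128 and 114 in KO and 70 and 64 in OE, with log2 fold changes of -1.52 and -0.84. RPE65, the retinoid isomerase of pigment epithelium, had 27 and 230 in KO and 12 and 14 in OE, while CRX, the other retinal marker measured and a photoreceptor factor, had 66 and 15 in KO and 38 and 36 in OE, which overlap. PTPRC, the leukocyte marker CD45, had 80 and 206 in KO and 30 and 28 in OE, so KO replicate 2 held the highest value for RPE65 and PTPRC. PAX3, a factor of the dorsal neural tube, had 401 and 235 in KO, 162 and 128 in OE and 309 and 267 in WT, while the related PAX7 had 132 and 40 in KO and 98 and 104 in OE, which overlap. DNMT3B, a DNA methyltransferase that was the 1 pluripotency marker measured, had 70 and 68 in KO and 94 and 106 in OE. How far these cell types contributed to the called genes was not tested. Chaperones and ER stress genes had 1 of 33 higher and 1 lower at an unadjusted p under 0.05. Genes of apoptosis had 3 of 26 higher (11.5%) and 0 lower, against 9.31% and 8.5% of all genes.

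**Figure D4:**
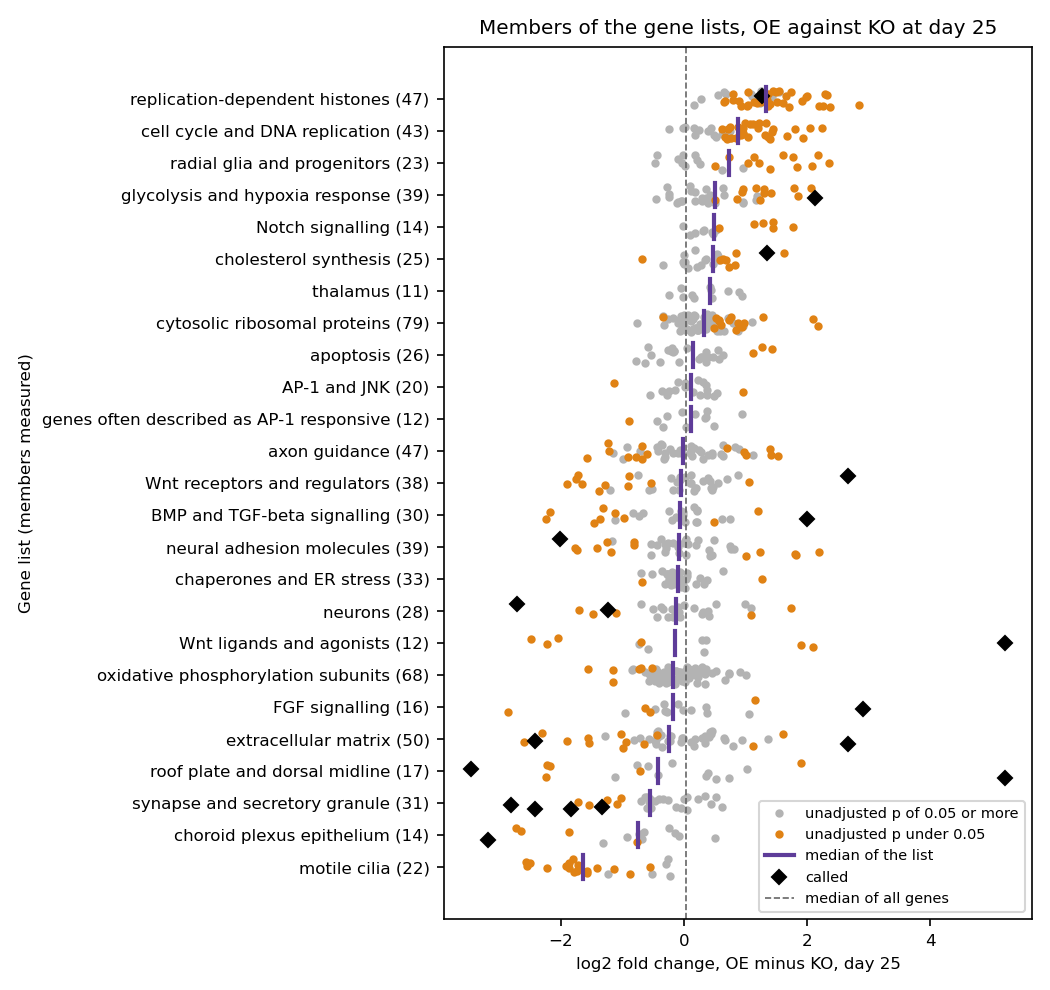
Log2 fold change of OE against KO at day 25 for each member of the lists with at least 10 measured genes (number measured after the name, lists ordered by median, purple line the list median, dashed line the median of all genes). Histones (median 1.34) and cell cycle genes (0.88) sit to the right of the dashed line and motile cilia (-1.65) to its left, while most pathway lists hold members on both sides.

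The same contrast was available in other libraries at day 30. All 26 genes called at day 25 had the same direction there, against 63.5% of all genes, and 23 of 26 did not overlap between OE and KO in that direction. These were 9 of the 12 genes that rose, where 18.7% of all genes had both OE values above both KO values at day 30, and all 14 that fell, where 18.5% had both below. There were 5 genes also called at day 30, SYT4, DPY19L1, PRKCB, ALCAM and CLDN1, all lower in OE. They were 19.2% of the 26 and 62.5% of the 8 genes called at day 30 (0.0842% of all genes). Of the 14 genes that fell at day 25, 13 had an unadjusted p under 0.05 at day 30, with KIFAP3 the exception, and of the 12 that rose, 6 did, where 5.01% of all genes were lower and 5.9% higher at that p.

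Among the 14 genes that fell, 8 had a smaller change at day 30 and 3 had an unadjusted p under 0.05 for the difference between the days. ALCAM had values of 428 and 491 in KO and 75 and 74 in OE at day 30, a log2 fold change of -2.61 (adjusted p = 0.00524, SE 0.259). DPY19L1 had 619 and 524 in KO and 150 and 94 in OE (-2.25, adjusted p = 0.012), and CLDN1 had 372 and 438 in KO and 82 and 22 in OE (-3.21, adjusted p = 0.0479). LMX1B went from a log2 fold change of -3.46 at day 25 to -1.76, VGF from -2.82 to -1.75, CD83 from -2.06 to -0.97, GAP43 from -1.24 to -0.59 and KIFAP3 from -1.06 to -0.18. The median over the 14 genes was -2.03 at day 25 and -1.75 at day 30. Over the 12 genes that rose it was 1.80 at day 25 and 0.68 at day 30, and all 12 had the smaller change at day 30. Of these 12, 9 had an unadjusted p under 0.05 for the difference between the days by limma, against 5.38% of all genes. The genes were chosen by their day 25 values, so the drop is given as a description. RSPO2 had 112 and 54 in KO, 78 and 460 in OE and 328 and 455 in WT at day 30, so OE replicate 1 lay among the KO values and OE replicate 2 near the WT values, and its log2 fold change was 1.28 (SE 0.674, adjusted p = 0.489). FGFR3 had 98 and 54 in KO and 356 and 241 in OE, without overlap (1.99, adjusted p = 0.0597).

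The difference of the change between the days was called for 0 of 9497 genes by limma, and 511 (5.38%) had an unadjusted p under 0.05. The lowest adjusted p was 0.848. Replication-dependent histones and cell cycle genes had medians of 1.23 and 0.67 at day 30, with 33 of 47 and 24 of 43 members higher at an unadjusted p under 0.05. Of all genes, 5.9% were higher and 5.01% lower at that p at day 30. Motile cilia had a median of -0.21 at day 30, with 1 of 22 lower and 1 higher, and radial glia and progenitor markers had a median of 0.20, with 4 of 23 higher. The glycolysis and hypoxia list had a median of 0.23 at day 30, with 1 of 39 higher and 3 lower. Oxidative phosphorylation subunits had a median of 0.31, with 7 of 68 higher and 0 lower, the opposite sign to day 25, while ribosomal protein genes had a median of 0.46, with 28 of 79 higher, and cholesterol synthesis genes 0.41, with 9 of 25 higher. The differences between these list medians were not tested.

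**Figure D5:**
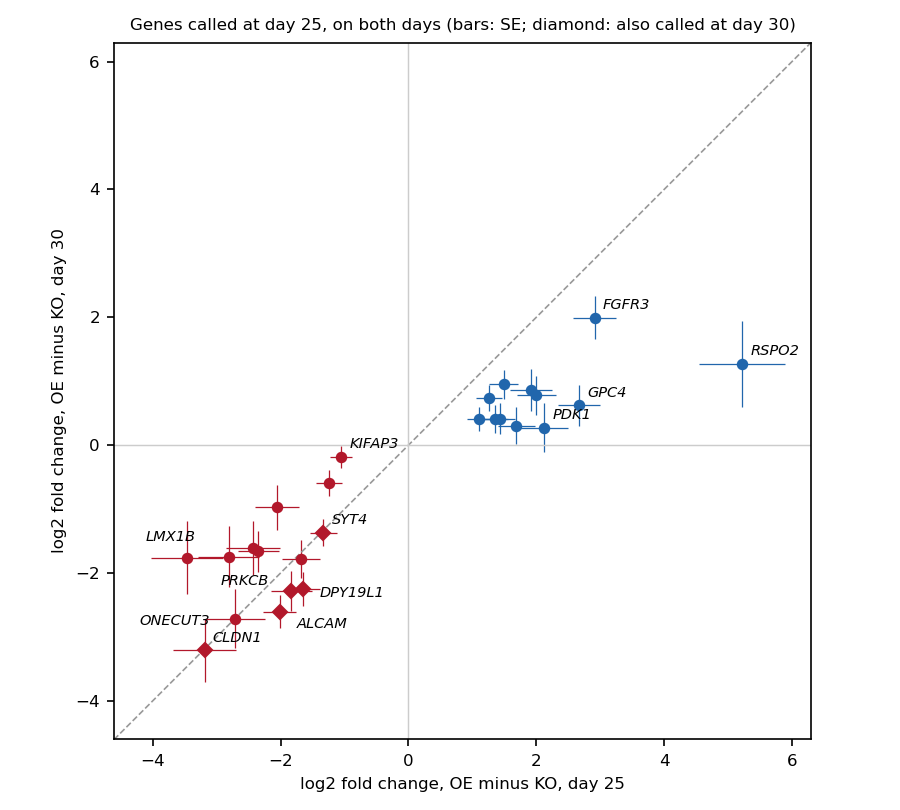
Log2 fold change of OE against KO at day 25 (horizontal) and day 30 (vertical) for the 26 genes called at day 25, with bars of 1 SE (blue rose, red fell, diamonds also called at day 30, dashed line equal change). All 26 lie on the same side of 0 on both days, the 12 genes that rose lie below the dashed line, and RSPO2 moves from 5.22 to 1.28.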

How the data were processed

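RNA-seq tables of 12 libraries (6 groups of 2) were used. Per the labels, rRNA-depleted total RNA of 3 pooled ThOs was sequenced, and the submitters' processing notes name bcl2fastq, Bowtie2, RSEM and build hg19, while the deposited positions overlapped RefSeq GRCh38.p14 for all 9386 matched symbols. The deposited value is a normalized score in whole numbers, rounded by the authors, with a distribution that is nearly equal in every library. The normalization is not given in the sources used here. The 11 ATAC-seq and CUT&Tag samples were not analysed here.

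Log2(value + 1) was fitted with limma 3.58.1 in R 4.3.3, with 1 mean per group over 12 libraries (6 residual and 5.29 prior degrees of freedom), an intensity trend, two-sided moderated tests and Benjamini-Hochberg adjustment over all genes of a contrast. Genes needed a value of at least 1 in 2 libraries, which removed 0. Calls needed an adjusted p under 0.05 and 2-fold, and the difference between days the adjusted p alone. The model uses 1 spread for all groups. Steps were tested on simulated data. Figures used matplotlib 3.10.9.

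Named genes were JUN, all called genes, up to 4 members per list with the smallest p, and genes the study named. Comparisons, members and lists were chosen with earlier results of these data known. No set test was run. The values of 1 called gene and of some list members are not reported here.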

Additional observations from a re-analysis of the deposited data

Results flagged for a closer look

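NDUFB2, a subunit of complex I, was the 1 named gene for which the OE libraries lay below both KO libraries at day 25 and above both at day 30. Its values were 76 and 81 in KO and 46 and 26 in OE at day 25 (log2 fold change -1.16), and 61 and 38 in KO and 76 and 70 in OE at day 30 (0.59). The difference between the days had an unadjusted p of 0.0112 and an adjusted p of 0.848 by limma, and did not pass. Of all genes, 22.4% had both OE values below both KO values at day 25, and 18.7% had both above at day 30. How many of all genes reversed in this way was not counted. With 2 libraries in a group, no library could be tested for standing apart from its group.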

How the results depend on the processing

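Of the 26 calls at day 25 (12 higher and 14 lower in OE), pseudocounts of 0.1 and 5, quantile normalization, median centring, no filter and a minimum mean of 50 each gave 26 to 28 calls. The normalizations could hardly change the calls, since the values were already alike in distribution. Fitting without the filter could not change them, since the filter removed 0 genes. These settings therefore do not test how the calls depend on normalization or on that filter. The 4 libraries alone gave 0 calls in both directions (1378 genes at an unadjusted p under 0.05), library weights 1 (1 higher and 0 lower), no intensity trend 3 (2 higher and 1 lower) and the 6 day 25 libraries 32, of which 22 were lower. An adjusted p under 0.1 with 2-fold gave 230, and an unadjusted p under 0.05 with 2-fold gave 814. The cause of these shifts was not tested. Leaving out 1 library gave 0 to 290 calls, of which 0 to 169 were higher and 0 to 121 lower, each such fit assuming that the lone library varies like the other groups.

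The replicate block gave 20 calls, with 6 higher, and 14 of them were shared with the 26. The labels do not say whether replicate numbers pair the samples. Deviations of same-numbered day 25 libraries correlated over genes at -0.01 for KO and OE, 0.08 for WT and KO and 0.09 for WT and OE. With 2 libraries in a group these values cannot decide whether samples were paired. Apart from single genes, the block moved no other count by over 1.5 times.

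Leaving out 1 library gave 19 to 34 histone genes higher, 4 to 13 of glycolysis, 5 to 11 of progenitors and 3 to 5 of Notch signalling, and 4 to 18 motile cilia genes, 3 to 8 of the choroid plexus and 7 to 16 of the synapse list lower. The difference between days was called for 0 genes under the settings that include day 30 and keep every library. The 26 shared directions held at day 30 under all 13 settings that include day 30. No day 30 library was left out in any of them, so they could hardly change these directions. The 4 and 6 day 25 libraries give no value there.

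Changes of sign, all among genes that were not called, came with a library left out. The called genes could not change sign in this way, since their KO and OE values do not overlap. Over these fits the log2 fold change ran from -0.69 to 0.15 for JUN, -0.12 to 2.02 for FN1, -0.032 to 1.83 for PROX1, -0.24 to 2.12 for IRX3, -0.57 to 1.42 for POU4F1, -0.43 to 0.61 for LMO3, -0.38 to 1.31 for PAX7, -1.28 to 0.067 for PDGFRB, -0.12 to 0.70 for TFAP2B, -0.82 to 1.25 for CRX, -0.51 to 1.40 for TCF7L2, -0.50 to 0.35 for CLDN5, -0.21 to 0.19 for MXRA5 and -0.025 to 0.18 for TJP1. Depth limits could not be set, since the values hold no read counts.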
